A study of Mus musculus with 24 samples.

Results

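The genes described here are 9 markers of the neural lineage, Pax6, Sox1, Nes, Tubb3, Ina, Map2, Stmn2, Stmn3 and Stmn4. They were followed in mouse embryonic stem cells (mESCs) directed towards extraembryonic endoderm (XEN), the tissue that lines the yolk sac, with and without AGO2. The 9 were taken by symbol from 30590 symbols in the day 1 to 4 counts and by Ensembl identifier from 43629 identifiers in the endpoint counts. All 9 passed the filter on low counts in the fit of the day 1 to 4 libraries and in the fit of all endpoint libraries. Pax6 and Ina were chosen by their measured levels, which were higher in knockout than in wild-type libraries of these data. Their differences between genotypes are therefore given as a description, without a test, and the other 7 genes were tested.

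All cells were of the E14 line, from a 129/Ola background, and were either wild type (WT) or AGO2 knockout (KO). AGO2 is an Argonaute protein that binds small RNAs and represses the messages they pair with. For the course, cells were plated on gelatin in medium with 15% serum, activin A at 10 ng/mL and all-trans retinoic acid at 0.1 µM, a protocol of 5 days, and each genotype was sampled in 2 libraries on each of days 1, 2, 3 and 4. Endpoint libraries were 2 of WT diff_XEN and 2 of KO diff_XEN, whose labels give the same serum, activin A, retinoic acid and 5-day protocol. The other 2 were of WT mESC, kept with 15% serum and 100 U/mL LIF at passages 33 and 42. The names of the KO diff_XEN columns give clones C4 and 5-3, 1 library each, and the labels mark all endpoint samples as re-used from earlier deposits, whereas the clone behind the KO course libraries is not stated. The labels do not give how the gene was disrupted. Apart from these clones and passages, no label says that replicates came from separate cultures. A p-value here therefore reflects only how far the deposited samples of a group differ. That spread lies between clones in KO diff_XEN and between passages in WT mESC, and may be technical in the other groups.

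Course libraries held 10601574 to 27147835 counts and endpoint libraries 13941826 to 40139219 counts. Ago2 stood at 186 to 581 CPM (read counts scaled to a common library size) in WT course libraries and at 33.8 to 148 CPM in KO course libraries, and every KO library was below every WT library. In diff_XEN, Ago2 was at 389 and 427 CPM in WT, at 115 CPM in clone C4 and at 9.35 CPM in clone 5-3. The 8 extraembryonic endoderm markers (Gata4, Gata6, Sox7, Sox17, Pdgfra, Dab2, Cubn and Amn) summed to 11400 to 12500 CPM in WT diff_XEN and to 415 to 686 CPM in KO diff_XEN. All 8 were lower there in KO, as were 24.9% of all genes. The KO libraries labelled diff_XEN thus held far less of the defining markers of that label than the WT libraries did. In bulk samples fewer cells of a type and less RNA per cell cannot be told apart.

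Pax6 and Sox1 are transcription factors of neural progenitors. Sox1 marks the neural plate, and Pax6 patterns the forebrain, spinal cord, eye and endocrine pancreas. The other genes encode cytoskeletal proteins. Nestin (Nes) is an intermediate filament of progenitors that is also made in muscle, vessel and mesenchymal cells, α-internexin (Ina) is a neuronal intermediate filament, and Tubb3 is the β-tubulin used to mark neurons. Map2 binds and stabilises dendritic microtubules, and the stathmins Stmn2, Stmn3 and Stmn4 bind tubulin dimers and favour microtubule turnover in growing neurites. In non-neuronal cells many neuronal genes are held down by the repressor REST, which recruits histone deacetylases and demethylases to its DNA element. Retinoic acid, which all course and diff_XEN cells received, is a common inducer of neural fates in cultured mESCs.

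Promoters, taken from 250 bases before to 50 bases after the annotated start site, were found for 7 of the 9 genes in RefSeq tables of GRCm38.p6, 8 sequences in all because Pax6 has 2 starts. Stmn2 and Stmn4 were not matched. The sequences of Pax6 and Ina, picked for their difference between genotypes, and of Tubb3 and Stmn3, which were higher in KO diff_XEN, are shown with 3 short motifs in capitals. These are GGACAG, the core of the right arm of the REST element, CCAAT, and the E box CAGCTG, each searched on both strands, so that a match on the minus strand is printed as its reverse complement. The windows lie at chr2:105668646-105668945 on the plus strand (Pax6, upstream start), chr19:47014431-47014730 on the plus strand (Ina), chr8:123411303-123411602 on the plus strand (Tubb3) and chr2:181314451-181314750 on the minus strand (Stmn3).
Pax6: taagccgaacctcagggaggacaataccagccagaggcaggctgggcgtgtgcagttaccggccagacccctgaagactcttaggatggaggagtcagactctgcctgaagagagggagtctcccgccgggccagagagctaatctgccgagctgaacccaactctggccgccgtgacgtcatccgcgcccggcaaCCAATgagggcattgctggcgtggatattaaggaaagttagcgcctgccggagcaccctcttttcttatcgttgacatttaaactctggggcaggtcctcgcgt
Ina: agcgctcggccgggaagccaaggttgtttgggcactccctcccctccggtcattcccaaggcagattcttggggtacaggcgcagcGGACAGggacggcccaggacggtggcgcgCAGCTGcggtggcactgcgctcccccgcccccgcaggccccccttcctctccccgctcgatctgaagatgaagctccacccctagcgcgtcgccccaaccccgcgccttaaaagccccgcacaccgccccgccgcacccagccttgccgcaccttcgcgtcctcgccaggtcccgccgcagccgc
Tubb3: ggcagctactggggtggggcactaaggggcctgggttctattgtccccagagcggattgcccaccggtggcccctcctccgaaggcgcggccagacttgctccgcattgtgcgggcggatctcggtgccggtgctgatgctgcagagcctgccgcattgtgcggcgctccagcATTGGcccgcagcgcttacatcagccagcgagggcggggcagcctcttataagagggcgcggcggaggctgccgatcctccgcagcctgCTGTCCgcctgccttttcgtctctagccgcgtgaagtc
Stmn3: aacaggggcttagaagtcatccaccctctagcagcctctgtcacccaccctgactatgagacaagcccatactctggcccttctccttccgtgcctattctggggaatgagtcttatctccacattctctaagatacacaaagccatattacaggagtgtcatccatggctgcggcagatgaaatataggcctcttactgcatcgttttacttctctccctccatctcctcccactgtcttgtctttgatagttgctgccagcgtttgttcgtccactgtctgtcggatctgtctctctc

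The Pax6 window held 1 CCAAT at -54 from the start site. Ina held GGACAG at -164 and the E box at -135. Tubb3 held GGACAG on the minus strand at 12, which lies after the start, and CCAAT on the minus strand at -77. None of the 3 motifs was in the Stmn3 window. Over 32851 promoters, GGACAG occurred in 22.2%, CCAAT in 37.4% and CAGCTG in 16.3%. Among the 8 promoters of these genes GGACAG was in 3 (Map2, Tubb3 and Ina), CCAAT in 3 (Pax6, Sox1 and Tubb3) and CAGCTG in 1 (Ina). The longer left arm of the REST element, TTCAGCACC, was in 0.371% of all promoters and in 0 of the 8, and the core motif of the retinoic acid receptor, AGGTCA, in 16.3% and in 0 of the 8. GC content was 71.7% for Ina, 67.3% for Tubb3, 58.7% for Pax6 and 49.7% for Stmn3, against a median of 52.7% over all promoters. A match describes letters in this window and shows no binding.

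Along the WT course the 9 genes moved in different directions. From day 1 to day 4, 3 rose (Nes, Stmn4 and Pax6), 4 fell (Ina, Stmn2, Stmn3 and Sox1) and 2 did not pass the test (Tubb3 and Map2), where 48.5% of the 17694 genes tested were called in either direction, 26.9% higher and 21.6% lower. Calls were made with the quasi-likelihood test of edgeR at a threshold of 0.05 on p-values adjusted by the Benjamini-Hochberg method across every gene in the fit. In the KO course 2 rose (Nes and Stmn4), the same 4 fell, and Pax6, Tubb3 and Map2 did not pass, against 66.3% of all genes called, 33.3% higher and 32.9% lower. Over the 9 genes the median log2 change was 0.15 in WT and -0.12 in KO, beside 0.01 and -0.02 over all genes.

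Pax6 (GRCm38 chr2:105668900-105697364, plus strand) was low in WT and several times higher in KO on every day. WT libraries held 2.32 and 3.53 CPM on day 1, 5.05 and 6.89 on day 2, 5.45 and 4.03 on day 3, and 4.67 and 5.58 on day 4. KO libraries held 15.2 and 17.1 CPM on day 1, 19.9 and 22.8 on day 2, 21.9 and 15.5 on day 3, and 13.3 and 16.3 on day 4. The lowest KO library was thus above the highest WT library of any day. The log2 difference of KO over WT, for which the gene was chosen, was 2.46, 1.83, 2.00 and 1.52 on days 1 to 4. Within WT, Pax6 rose from day 1 to day 4 by 0.81 ± 0.28 on the log2 scale (SE, n = 2 per day; edgeR adjusted p = 0.0283). That call was lost when WT day 1 replicate 1 (0.51), WT day 4 replicate 1 (0.92) or WT day 4 replicate 2 (0.63) was left out. Within KO the change was -0.12 ± 0.25 (edgeR adjusted p = 0.675), and the difference between the 2 changes was -0.94, given without a test.

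Sox1 (chr8:12395295-12400126, plus strand) was low in both genotypes, peaked on day 2 by its mean level and fell afterwards. WT libraries stood at 2.80 and 4.16 CPM on day 1, 4.78 and 4.95 on day 2, 0.462 and 1.78 on day 3, and 0.359 and 0.644 on day 4. KO libraries stood at 4.18 and 7.74 CPM on day 1, 13.8 and 15.2 on day 2, 6.05 and 2.13 on day 3, and 0.450 and 1.24 on day 4. Both KO libraries were above both WT libraries on days 1 to 3, by a margin of only 4.18 against 4.16 CPM on day 1, and the groups overlapped on day 4. Averaged over the 4 days Sox1 was higher in KO by 1.24 ± 0.30 on the log2 scale (edgeR adjusted p = 0.0112), the 1 call among the 7 tested genes in that contrast, where 17.5% of all genes were called, 7.52% higher and 10% lower. Without KO day 4 replicate 2 the call was lost (1.02, adjusted p = 0.0761). No single day passed, the largest differences being 1.58 ± 0.48 on day 2 (adjusted p = 0.136) and 1.86 ± 0.58 on day 3 (adjusted p = 0.0869). Its log2 change from day 1 to day 4 was -2.74 ± 0.67 in WT (adjusted p = 0.00393) and -2.77 ± 0.59 in KO (adjusted p = 9.40e-04), and day 4 rested on 4 to 20 counts per library.

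**Figure D1:**
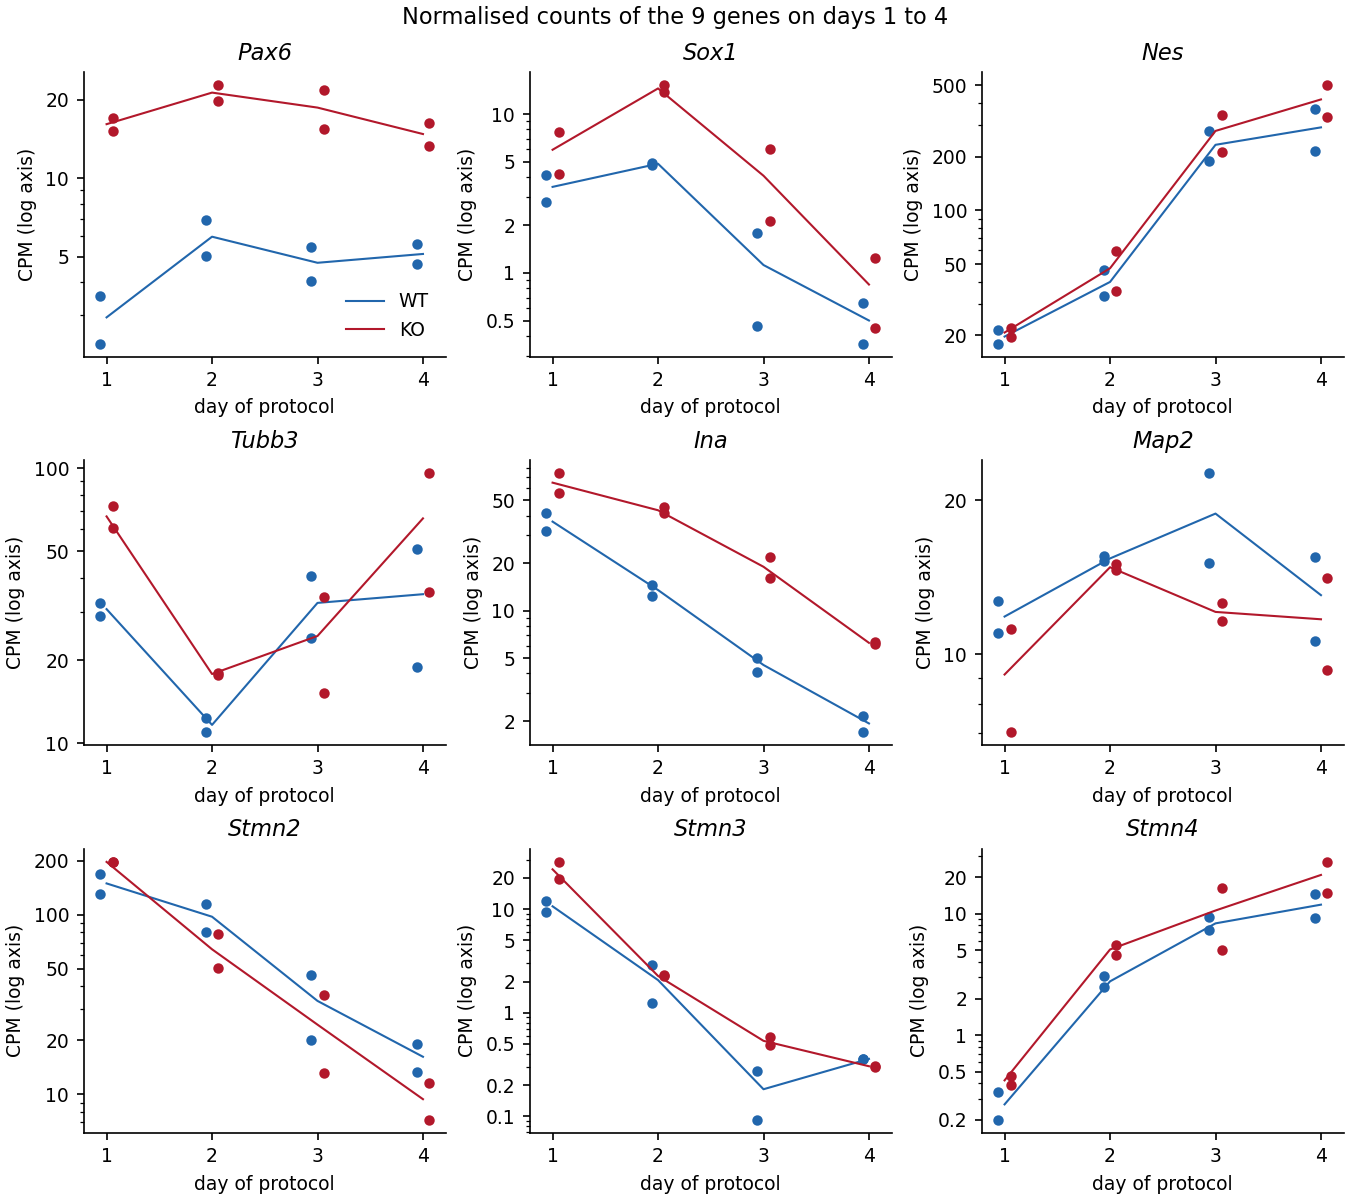
Normalised counts (CPM, log axis) of each gene by day of the protocol, with 1 point per library (2 per group) and lines through group means, WT in blue and KO in red. Pax6 and Ina are separated by genotype on every day, whereas Nes and Stmn4 climb and Stmn2 and Stmn3 decline in both genotypes.

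Of the intermediate filament genes, Nes and Ina moved in opposite directions. Nes (chr3:87971078-87980451, plus strand) rose from 21.4 and 18.0 CPM on day 1 to 367 and 215 CPM on day 4 in WT, and from 19.6 and 21.9 CPM to 501 and 333 CPM in KO. It passed 33.1 and 46.5 CPM on day 2 and 276 and 189 CPM on day 3 in WT, and 35.4 and 59.5 CPM on day 2 and 213 and 343 CPM on day 3 in KO. The genotypes overlapped on all 4 days. The log2 rise from day 1 to day 4 was 3.88 ± 0.38 in WT (edgeR adjusted p = 5.85e-06) and 4.33 ± 0.38 in KO (adjusted p = 1.43e-06), and the difference between these rises did not pass the test (0.45 ± 0.48, adjusted p = 0.585).

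Ina (chr19:47014698-47025327, plus strand) stood at 31.9 and 41.3 CPM on day 1 in WT, at 12.4 and 14.6 on day 2, at 4.07 and 4.98 on day 3 and at 1.71 and 2.15 on day 4. In KO it stood at 55.2 and 74.0 CPM on day 1, 41.3 and 45.1 on day 2, 21.8 and 16.1 on day 3, and 6.31 and 6.19 on day 4. Both KO libraries were above both WT libraries on each day, and the KO libraries of each later day reached at least the WT level of the day before. The log2 difference of KO over WT, described without a test, was 0.82, 1.68, 2.06 and 1.68 on days 1 to 4. The fall of Ina from day 1 to day 4 was -4.23 ± 0.26 on the log2 scale in WT (edgeR adjusted p = 8.21e-08) and -3.37 ± 0.23 in KO (adjusted p = 9.14e-08).

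The microtubule genes Tubb3 and Map2 showed no called change between day 1 and day 4 in either genotype. Tubb3 (chr8:123411424-123422015, plus strand) was at 32.4 and 29.1 CPM on day 1, 12.3 and 11 on day 2, 24.1 and 40.7 on day 3, and 50.7 and 19.0 on day 4 in WT. In KO it was at 60.6 and 73.2 CPM on day 1, 17.7 and 18.0 on day 2, 15.2 and 33.9 on day 3, and 96.0 and 35.6 on day 4. KO lay above WT without overlap on days 1 and 2, and the groups overlapped on days 3 and 4, when the 2 libraries of a group stood far apart. In both genotypes the day 2 libraries were below those of day 1 without overlap, a change for which no test was run. The day 1 difference was 1.12 ± 0.51 on the log2 scale, which did not pass (edgeR adjusted p = 0.150). It did pass in a fit of the 4 day 1 libraries alone (1.13, adjusted p = 0.00267) and without a filter on low counts (1.14, adjusted p = 3.5e-06).

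Map2 (chr1:66175273-66442583, plus strand) stayed between 7.05 and 22.6 CPM in every course library. In WT it was at 12.7 and 11 CPM on day 1, 15.6 and 15.2 on day 2, 15.1 and 22.6 on day 3, and 10.6 and 15.5 on day 4. In KO it was at 11.2 and 7.05, 14.6 and 15.0, 12.6 and 11.6, and 9.31 and 14.1 CPM on the same days. KO was below WT without overlap on days 2 and 3, but no day passed the test, the largest difference being -0.64 ± 0.28 on the log2 scale on day 3 (edgeR adjusted p = 0.207).

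The 3 stathmins took different courses. Stmn2 (chr3:8509360-8561606, plus strand) fell from 168 and 131 CPM on day 1 through 115 and 80.1 on day 2 and 20.1 and 46.2 on day 3 to 13.4 and 19.0 CPM on day 4 in WT. In KO it fell from 196 and 198 CPM through 78.1 and 50.4 and 35.7 and 13.2 to 7.21 and 11.6 CPM. KO was above WT on day 1 and below it on days 2 and 4, each without overlap, and no day passed the test. The log2 fall from day 1 to day 4 was -3.20 ± 0.49 in WT (edgeR adjusted p = 2.37e-04) and -4.38 ± 0.52 in KO (adjusted p = 1.83e-05). The difference between these falls was -1.18 ± 0.66 and did not pass (adjusted p = 0.270), whereas without a filter on low counts it did (-1.21, adjusted p = 5.04e-04).

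Stmn3 (chr2:181306459-181314500, minus strand) was highest on day 1 in both genotypes. WT libraries held 11.9 and 9.38 CPM on day 1, 2.88 and 1.25 on day 2, 0.0924 and 0.273 on day 3, and 0.359 and 0.358 on day 4. KO libraries held 19.6 and 28.8 CPM on day 1, 2.29 and 2.24 on day 2, 0.489 and 0.582 on day 3, and 0.300 and 0.309 on day 4. On day 1 the KO libraries were above the WT libraries by 1.18 ± 0.31 on the log2 scale (edgeR adjusted p = 0.0300), the 1 called gene of the 7 tested that day, where 13.6% of all genes were called, 6.89% higher and 6.71% lower. The call was lost when WT replicate 1 of day 1 (1.41), WT replicate 2 of that day (1.07) or KO replicate 2 of that day (0.90) was omitted. By days 3 and 4 only 1 to 13 counts per library remained, and the log2 fall from day 1 to day 4 was -4.87 ± 0.46 in WT (adjusted p = 2.37e-06) and -6.28 ± 0.46 in KO (adjusted p = 1.62e-07).

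Stmn4 (chr14:66344296-66361680, plus strand) did the reverse. It held 5 and 8 counts (0.200 and 0.337 CPM) on day 1 in WT, and then 3.04 and 2.5 CPM on day 2, 9.33 and 7.31 on day 3, and 14.5 and 9.23 on day 4. In KO it held 10 and 10 counts (0.387 and 0.460 CPM) on day 1, and then 4.57 and 5.57 CPM on day 2, 5.04 and 16.2 on day 3, and 26.9 and 14.8 on day 4. KO was above WT without overlap on days 1, 2 and 4. The log2 rise from day 1 to day 4 was 5.43 ± 0.60 in WT (edgeR adjusted p = 9.15e-06) and 5.60 ± 0.57 in KO (adjusted p = 2.17e-06), and no day separated the genotypes by the test, the day 2 difference being 0.87 ± 0.46 (adjusted p = 0.434).

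Across the 7 tested genes the counts of calls between genotypes were small. On days 2, 3 and 4 edgeR called 0 of the 7, where 1.63%, 4.83% and 7.04% of all genes were called (0.774%, 1.83% and 1.99% higher, and 0.853%, 3% and 5.05% lower). At an unadjusted p under 0.05 there were 1, 2 and 0 of the 7, and DESeq2 called 0, 1 and 0. For the difference between genotypes in the change from day 1 to day 4, 0 of the 7 were called by either tool and 0 had an unadjusted p under 0.05, beside 6.42% of all genes, 2.59% higher and 3.83% lower. Both KO libraries lay above both WT libraries for 5 of the 7 on day 1, 3 on day 2, 2 on day 3 and 1 on day 4, where 31.3%, 26.9%, 20.9% and 26.4% of all genes did so. They lay below for 0, 2, 1 and 2 of the 7, where 34.2%, 29%, 21.5% and 27.2% of all genes did so.

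**Figure D2:**
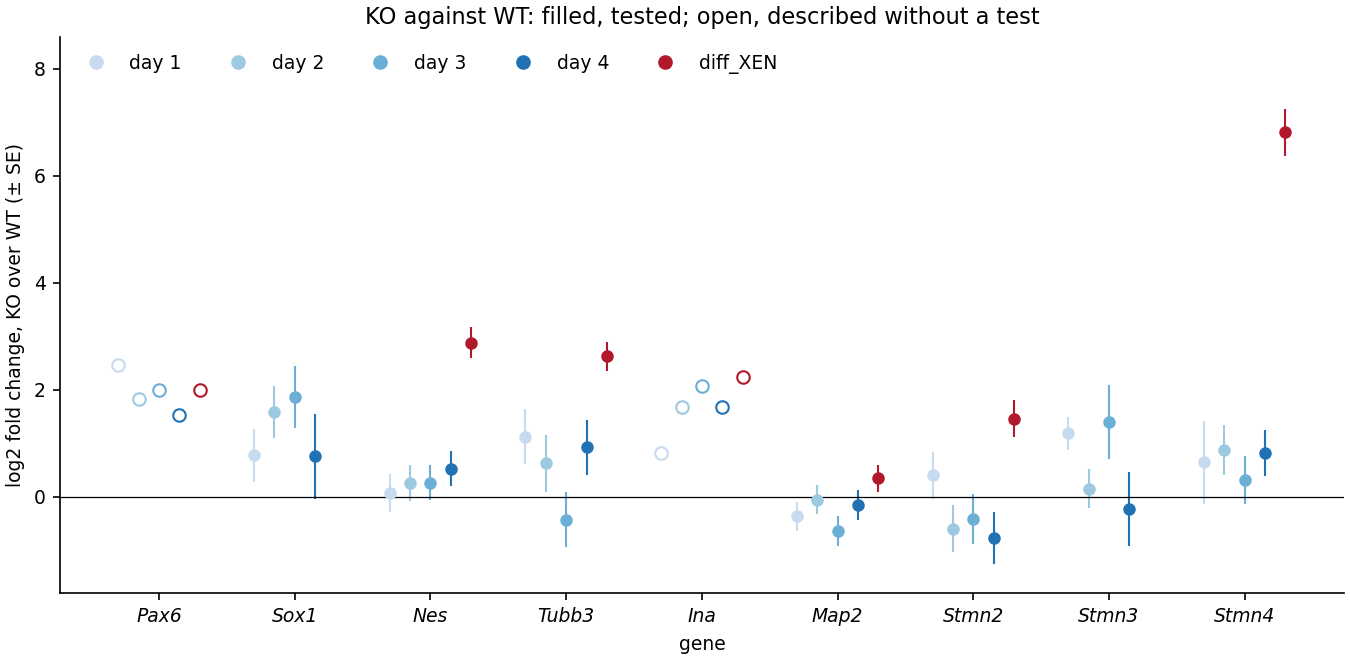
Log2 fold change of KO over WT for each gene on days 1 to 4 and in diff_XEN, with bars of ± SE for tested genes and open circles for Pax6 and Ina, which were chosen for this difference. The diff_XEN points of Nes, Tubb3, Stmn2 and Stmn4 lie above their day 1 to 4 points, Sox1 was not tested in diff_XEN, and the diff_XEN point of Stmn3 is left out because WT held 1 count.

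Expressed per exon length, the order of the genes changed over the course. In RPKM, which is CPM per kilobase of exon, Stmn2 led on WT day 1 at a mean of 26.6, above Tubb3 at 16.4, Ina at 11.3 and Stmn3 at 9.38, and the ranges of Ina and Stmn3 overlapped. On WT day 4 Nes led at 45.4 RPKM, above Tubb3 at 18.7, Stmn4 at 6.19 and Stmn2 at 2.89, without overlap between neighbours. KO day 4 had the same first 3 genes, Nes at 65.0, Tubb3 at 35.2 and Stmn4 at 10.9 RPKM, followed by Ina at 1.93 and Stmn2 at 1.69, which overlapped. Pax6 was 8th of 9 on WT day 1 (0.251 RPKM) and 6th on KO day 1 (1.38 RPKM), where its range overlapped that of Sox1 (1.23 RPKM).

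Levels of log2(CPM + 0.5) over the 16 course libraries set Nes and Stmn4, which climbed, apart from Sox1, Ina, Stmn2 and Stmn3, which declined. Days, genotype and depth are shared by these points. Pax6 and Ina were chosen for their genotype difference in these libraries, and that difference enters their correlations and the genes most like them. Pearson's r was 0.93 between Nes and Stmn4 and 0.87 between Stmn2 and Stmn3, whereas Nes and Stmn2 gave -0.97. Tubb3 and Map2 were on neither side, at 0.17 and 0.15 with Nes and at -0.16 and -0.08 with Stmn2. Ina tracked Sox1 (0.85) and Stmn3 (0.82). Pax6 correlated weakly with all the others, the highest value being 0.44 with Sox1. Over the same libraries, the genes most like Pax6 were Msln (0.919), Ado (0.915) and Dnajb12 (0.900), and those most like Sox1 were Fzd10 (0.953), Igfbpl1 (0.940) and Gli1 (0.940). Nes was most like Tgfb2 (0.996), Filip1l (0.993) and Acta2 (0.993), and Stmn4 most like Tes (0.991), Fbn2 (0.986) and Gata3 (0.985). Ina was most like Actn3 (0.963), Xkr5 and Maneal, Stmn2 most like Impa2 (0.980), Bckdhb and Smtnl2, and Stmn3 most like Rasgrp2 (0.980), Bloc1s3 and Gart. For Tubb3 the leading genes were Pop4 (0.906), Tmem167 and Zbtb7c, and for Map2 Cyp27a1 (0.923), Zfp946 and Sycp2. With a pseudocount of 5, 0 of the 3 names were kept for Nes and for Stmn4 and 1 of 3 for Stmn3.

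At the endpoint most of the genes stood higher in KO. Of 6 tested genes 5 were higher in KO diff_XEN than in WT diff_XEN (Nes, Tubb3, Stmn2, Stmn3 and Stmn4), 0 were lower and Map2 did not pass, where 22.1% of 16671 genes were higher, 24.9% lower and 47% were called in either direction. No gene was lower at an unadjusted p under 0.05, and DESeq2 also called 5. The median log2 difference of the 6 was 2.75, beside -0.02 over all genes. Stmn3 and Stmn4 held 1 and 18 counts in the WT group against 54 and 1249 in the KO group. They passed the filter on low counts through the KO libraries, so their calls could only be higher, which weighs on this count and median. Sox1 was not tested, since it held 9 and 4 counts in WT and 2 and 4 in KO.

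Stmn4 showed the widest difference of those with a fitted fold. It was at 0.325 and 0.164 CPM (12 and 6 counts) in WT diff_XEN and at 32.9 CPM in clone C4 and 22.2 CPM in clone 5-3, a log2 difference of 6.81 ± 0.44 (edgeR adjusted p = 0.00224). Stmn3 held 1 and 0 counts in WT diff_XEN against 26 and 28 in KO, so its summed counts were 80.7 times higher after scaling (exact 95% interval 13.9 to 3247, counting error only). Its levels remained low in KO, at 1.78 and 0.810 CPM, and its edgeR adjusted p was 0.00662. WT held Stmn2 at 4.98 and 2.90 CPM and KO at 10.5 and 10.7 CPM, a log2 difference of 1.46 ± 0.35 (adjusted p = 0.0212). The Stmn2 call was lost without clone C4 (1.52, adjusted p = 0.0765) or clone 5-3 (1.43, adjusted p = 0.0915).

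WT diff_XEN held Nes at 60.2 and 38.0 CPM, against 400 and 311 CPM in KO diff_XEN, where it was higher by 2.88 ± 0.29 on the log2 scale (edgeR adjusted p = 0.00278). For Tubb3 the WT libraries held 14.2 and 9.46 CPM and the KO libraries 65.6 and 77.3 CPM, higher by 2.62 ± 0.27 (adjusted p = 0.00283). For both genes the clones lay close together and far above WT. For Map2 the levels were 9.01 and 6.94 CPM in WT against 9.84 and 9.98 CPM in KO, a difference of 0.34 ± 0.26 that did not pass (adjusted p = 0.327). Pax6 was at 1.95 and 2.19 CPM in WT, at 10.9 CPM in clone C4 and at 5.47 CPM in clone 5-3, and Ina at 0.622 and 0.355 CPM in WT, at 3.42 CPM in C4 and at 1.27 CPM in 5-3. Their log2 differences, described without a test, were 1.99 and 2.24, and both genes stood higher in C4 than in 5-3.

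Against undifferentiated cells, WT diff_XEN was higher in 3 of the 9 (Pax6, Nes and Stmn4) and lower in 5 (Sox1, Tubb3, Ina, Stmn2 and Stmn3), where 52.5% of 17936 genes were called in either direction, 27.2% higher and 25.3% lower. The WT diff_XEN libraries are shared with the comparison of genotypes. WT mESC already held Stmn2 at 347 and 346 CPM, Ina at 33.5 and 30.3, Tubb3 at 29.2 and 35.1, Nes at 13.9 and 17.8, Map2 at 11.9 and 12.3 and Stmn3 at 4.17 and 5.67 CPM. Sox1 was at 1.13 and 1.70 CPM there, Pax6 at 0.312 and 0.302 CPM, and Stmn4 at 1 and 0 counts. Stmn2 was lower in WT diff_XEN by a log2 change of -6.46 ± 0.34 (edgeR adjusted p = 7.63e-05), Ina by -6.02 ± 0.59 (adjusted p = 3.41e-04) and Tubb3 by -1.44 ± 0.27 (adjusted p = 0.00431). Stmn3 counts were 358 times higher in mESC than in diff_XEN after scaling (exact 95% interval 63.9 to 14194), and Stmn4 counts 19.1 times higher in diff_XEN (3.02 to 797). Pax6 was higher by 2.74 ± 0.51 (adjusted p = 0.00401) and Nes by 1.63 ± 0.30 (adjusted p = 0.00357). Sox1 was lower by -2.97 ± 0.64 (adjusted p = 0.00714), a call lost without the second WT diff_XEN library (-2.49, adjusted p = 0.0644), and Map2 did not pass (-0.60 ± 0.29, adjusted p = 0.118).

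**Figure D3:**
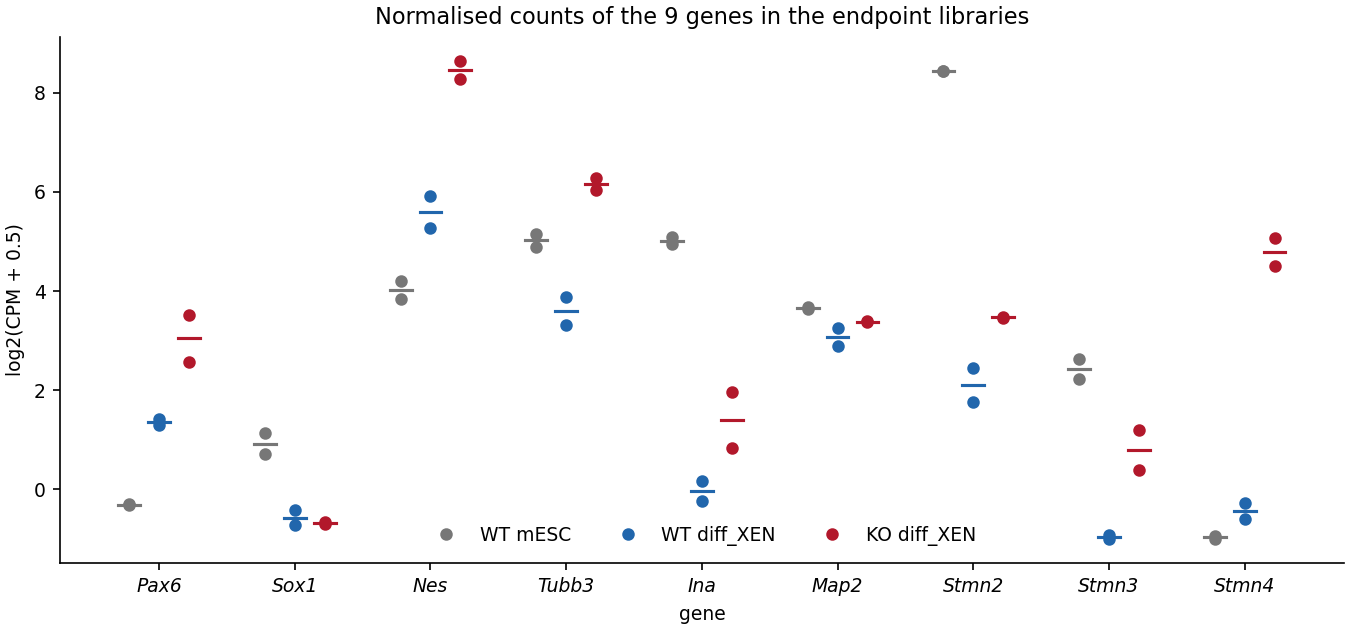
Log2(CPM + 0.5) of each gene in WT mESC (grey), WT diff_XEN (blue) and KO diff_XEN (red), with 1 point per library and a bar at the mean of 2. Nes, Tubb3 and Stmn4 are highest in KO diff_XEN, whereas Sox1, Ina, Stmn2 and Stmn3 are highest in WT mESC.

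Per exon length, Nes led in KO diff_XEN at 55.5 RPKM, above Tubb3 at 38.2, Stmn4 at 14.4 and Stmn2 at 1.90, without overlap. In WT diff_XEN, Nes at 7.66 RPKM and Tubb3 at 6.33 RPKM overlapped, and the other 7 were below 1 RPKM. WT mESC was led by Stmn2 at 61.8 RPKM, above Tubb3 at 17.2 and Ina at 9.83. Course and endpoint libraries were scaled separately, so no level is compared between them.

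Other genes of the neuronal cytoskeleton were read from a list of 22. In KO diff_XEN 14 of the 22 were higher than in WT and 0 lower by edgeR (0 lower also by DESeq2 and at an unadjusted p under 0.05), where 22.1% of all genes were higher and 24.9% lower, with a median log2 difference of 2.41. Map1a, a microtubule-associated protein, was higher by 2.96 ± 0.24, Dclk1, a doublecortin-like kinase, by 3.23 ± 0.37, Dcx, doublecortin, by 4.51 ± 0.53 and Map6 by 2.79 ± 0.34. The other 8 were not called, and the neurofilament genes among them, named after their values were seen, had negative values (Nefl -0.47 ± 0.20, Nefm -0.98 ± 0.89 and Nefh -1.65 ± 0.69). Mapt (0.24 ± 0.43), Dpysl5 (0.16 ± 0.31) and Stmn1 (0.03 ± 0.24) were near 0. The list summed to 444 to 871 CPM in WT diff_XEN and to 4450 to 4800 CPM in KO diff_XEN, and Vim, named after its values were seen, the intermediate filament vimentin of mesenchymal and progenitor cells, alone held 222 and 89.5 CPM in WT and 2280 and 2070 CPM in KO. On day 1, 5 of the 22 were higher in KO and 1 lower (6.89% and 6.71% of all genes), with Tubb2b higher by 0.95 ± 0.16, Stmn1 by 0.80 ± 0.15 and Crmp1 by 1.06 ± 0.22. The lower gene was Map1a (-0.73 ± 0.22), which was higher in KO in diff_XEN. The count of higher genes was 0 without KO replicate 2 of day 1, 1 without WT replicate 2 and 2 without WT replicate 1. On day 2, 2 were higher and 0 lower (0 lower also by DESeq2 and at an unadjusted p under 0.05), beside 0.774% and 0.853% of all genes. On day 3, 0 were higher and 1 lower (Tubb4a, -1.75 ± 0.32), beside 1.83% and 3% of all genes. At an unadjusted p under 0.05 there were 2 higher and 6 lower and by DESeq2 1 higher and 3 lower. On day 4, 2 were higher and 1 lower (Nefh, -0.67 ± 0.19), beside 1.99% and 5.05% of all genes. By DESeq2 4 were higher and 0 lower that day, and at an unadjusted p under 0.05 there were 6 higher and 1 lower. Averaged over the days 6 were higher and 1 lower (7.52% and 10% of all genes), and Crmp1 (1.02 ± 0.12) and Tubb2b (0.61 ± 0.08) had the smallest p-values. The lower gene was Tubb4a (-0.92 ± 0.15), which was higher in KO in diff_XEN (2.37 ± 0.59).

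Regulators and differentiation genes of the neural lineage held calls in both directions. Of 26 progenitor regulators 19 could be tested in diff_XEN, and 8 were higher in KO and 1 lower (Sox21, -1.73 ± 0.36), beside 22.1% and 24.9% of all genes, the higher ones including Zfp521 (2.68 ± 0.28), Pax2 (4.65 ± 0.54) and Zic1 (3.50 ± 0.45). Pax2 reached 2.53 and 2.98 CPM and Zic1 6.56 and 7.64 CPM in KO, so these were low transcripts. Averaged over the course 3 of 21 were higher in KO (Msi1, Emx2 and Pou3f1) and 1 lower (Otx2), beside 7.52% and 10% of all genes. Of 20 proneural and neuronal differentiation genes 10 could be tested in diff_XEN. In KO 3 were higher (Isl1, Insm1 and Scrt1, the last pair from 2 counts in the WT group) and 2 lower (Onecut1 and Onecut2). Both counts were near the shares of all genes, 22.1% and 24.9%. With either WT library or clone C4 left out, 1 was higher and 1 lower. The 20 summed to 40.7 to 44.4 CPM in WT diff_XEN and to 22.8 to 27 CPM in KO diff_XEN, but 17 of them were below 1 CPM in every WT diff_XEN library and 1, Onecut2, reached 10 CPM. Onecut1 and Onecut2 were higher in WT diff_XEN than in WT mESC, by 6.10 ± 0.98 and 5.01 ± 0.84, so the lower sum in KO is no measure of neuronal differentiation alone. In the course the sums of the 20 stood the other way on days 1, 2 and 3. They were 57.3 to 58.7 CPM in WT and 65.4 to 70.9 CPM in KO on day 1. On day 2 they were 31.8 to 37.2 and 46.2 to 51.5 CPM, and on day 3 31.4 to 39.8 and 42.5 to 46.4 CPM. The genotypes overlapped on day 4 (38.3 to 39 and 37.4 to 41.2 CPM). Insm1, a zinc finger factor of neuroendocrine and neuronal progenitors, was higher in KO on day 1 (2.40 ± 0.48), on day 2 (2.10 ± 0.49) and on average (1.5 ± 0.33). It was the 1 call of 10 tested genes in each, where 6.89%, 0.774% and 7.52% of all genes were higher. Atoh1, Myt1, Neurod4, Neurog1, Neurog2 and Nhlh2, 6 defining genes of neuronal commitment or differentiation, had no count in either KO diff_XEN library, and of these Neurod4, Neurog1 and Nhlh2 had none in WT diff_XEN. Of the progenitor genes, Hes5 and Olig2 had no count in either genotype, Dbx1 none in KO and Rax none in WT.

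REST and 8 of its partners were measured beside these. In diff_XEN 1 of the 9 was higher in KO (Kdm1a, 0.59 ± 0.15) and 2 lower (Rcor1, -0.79 ± 0.18, and Sin3a, -0.65 ± 0.16). Of all genes 22.1% were higher and 24.9% lower, and 9 genes are too few to set the list apart from these shares. Rest itself, at 91.8 and 110 CPM in WT and 112 and 129 CPM in KO, was not called there. Averaged over the course Rest was higher in KO by 0.29 ± 0.08 (edgeR adjusted p = 0.0158). The fall of Rest from day 1 to day 4 was -1.21 ± 0.15 on the log2 scale in WT and -0.68 ± 0.15 in KO, and the difference between these falls did not pass (0.53 ± 0.21, edgeR adjusted p = 0.128).

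Markers of other cell types were also read in diff_XEN, where 22.1% of all genes were higher in KO and 24.9% lower. Of 10 mesenchyme and fibroblast genes (Acta2, Tagln, Col1a1, Col1a2, Col3a1, Thy1, Pdgfrb, Twist1, Postn and Dcn), a list chosen after values of these data were seen, 7 were higher (Pdgfrb with the smallest p, 3.37 ± 0.36) and 1 lower (Col1a2, -2.11 ± 0.61) in KO diff_XEN. They summed to 787 to 1800 CPM in WT diff_XEN, 9670 to 11900 CPM in KO diff_XEN and 32.7 to 47.4 CPM in WT mESC, and none was at 0 in diff_XEN. Over the course they summed to 49 to 50.7 CPM on WT day 1 and 2350 to 5890 CPM on WT day 4, and to 34.1 to 38.5 and 4690 to 9020 CPM in KO. From day 1 to day 4, 9 of the 10 rose and 1 fell in each genotype. Of all genes 26.9% rose and 21.6% fell in WT, and 33.3% rose and 32.9% fell in KO. Of 9 neural crest and placode genes 5 were tested in diff_XEN and 3 were higher in KO, Snai2 and Ets1 among them, with sums of 56.9 to 84.8 CPM in WT and 171 to 259 CPM in KO. The 9 pancreatic endocrine genes summed to 1.61 to 2.87 CPM in WT and 5.67 to 6.02 CPM in KO, with 0 of 3 called by edgeR. All 3 had an unadjusted p under 0.05 (Chga 2.35 and Chgb 2.66 above 0, Pdx1 -2.35 below). Gcg, Ins1, Ins2 and Neurog3 were at 0 in KO, and of these Ins1, Ins2 and Neurog3 were at 0 in WT as well. The 7 glial genes summed to 68.9 to 81.8 CPM in WT and 109 to 132 CPM in KO, where 1 of 4 tested was higher (Sox9, also a gene of mesenchyme and endoderm). The 8 pluripotency genes summed to 875 to 925 CPM in WT and 66.2 to 91 CPM in KO, with 7 lower. The part of these populations in the levels of Nes, Tubb3 and the stathmins was not tested.

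On days 1 to 4 the endoderm markers were lower in KO from the start, at 16.8 to 22.3 CPM against 103 to 140 CPM in WT on day 1 and at 314 to 337 CPM against 3590 to 3650 CPM on day 4. The mesenchyme list had 1 or no member called in either direction on each single day. In the average over days Acta2 (1.18 ± 0.37), Tagln (1.02 ± 0.25) and Twist1 (0.46 ± 0.14) were higher and Thy1 (-1.09 ± 0.16) lower. Of all genes 7.52% were higher and 10% lower in that average. The pluripotency genes summed to 4250 to 5300 CPM in WT and 6090 to 7320 CPM in KO on day 1, and to 747 to 1160 CPM in WT and 261 to 575 CPM in KO on day 4. Sox1, Ina, Stmn2 and Stmn3 were, like these markers, highest in WT mESC among the endpoint groups and lower on day 4 than on day 1. The order of genotypes on day 4 was not shared. Ina lay above WT in both KO libraries, Stmn2 and Stmn3 lay below, and Sox1 overlapped, where 26.4% of all genes lay above and 27.2% below. The part of the endoderm, mesenchyme and pluripotency differences in the levels of the 9 genes was not tested.

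**Figure D4:**
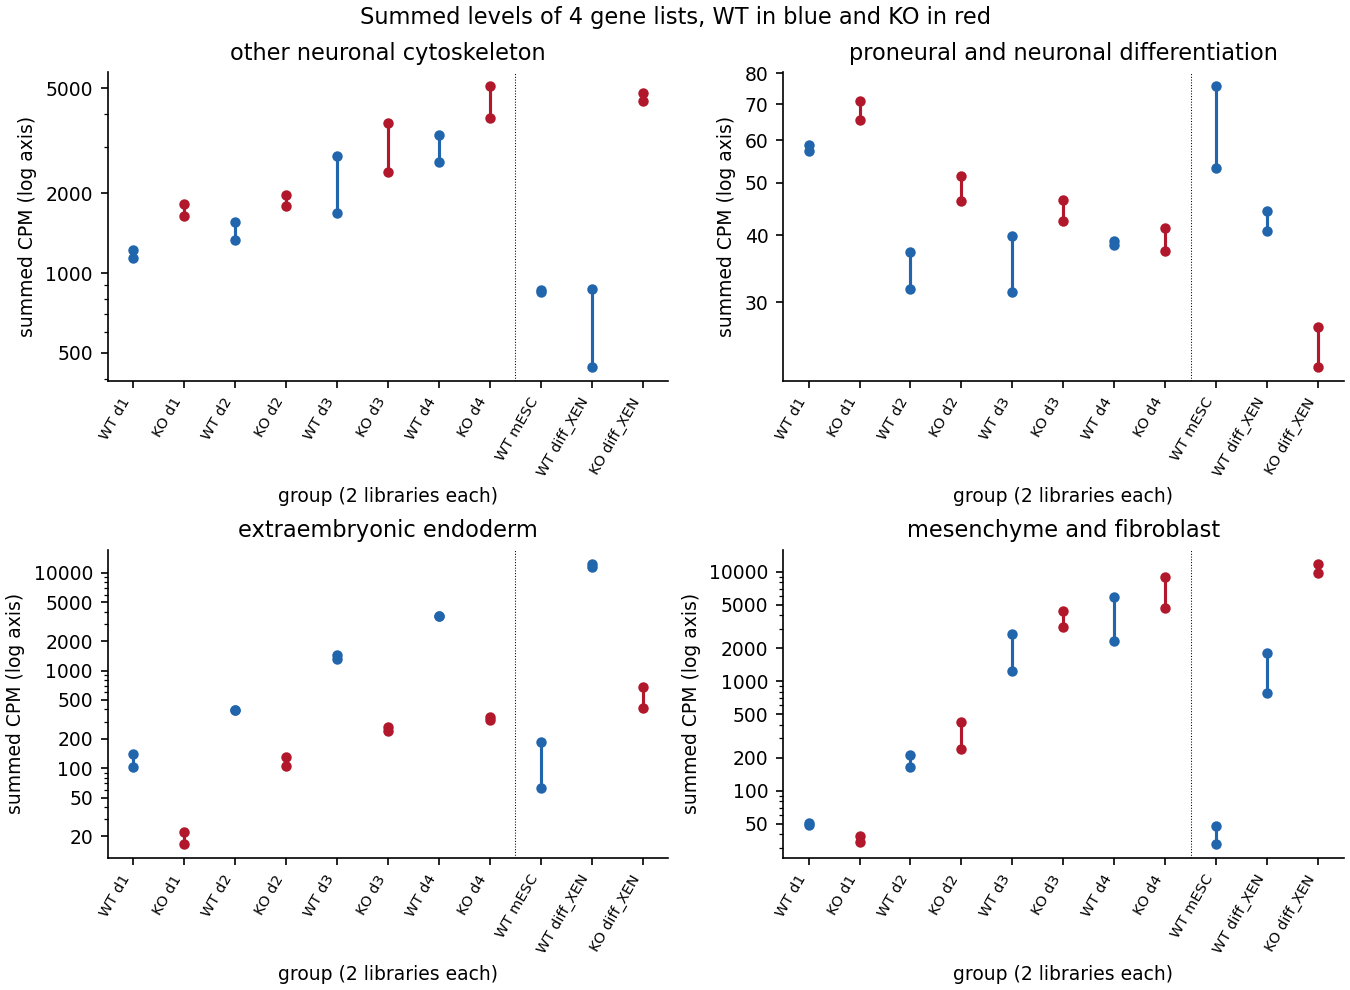
Summed CPM (log axis) of 4 gene lists in each group, with 2 points per group joined by a line, WT in blue and KO in red; groups right of the dotted line are endpoint libraries, scaled separately from the course. In KO diff_XEN the neuronal cytoskeleton list (4450 to 4800) and the mesenchyme list (9670 to 11900) lie above WT diff_XEN, and the proneural list (22.8 to 27) and the endoderm list (415 to 686) lie below it. Onecut2 was the only gene of the proneural list to reach 10 CPM in WT diff_XEN.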

How the data were processed

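Polyadenylated RNA was sequenced as TruSeq libraries, per the labels. The deposited values are raw read counts, made by the authors with STAR 2.5.0c and featureCounts 1.4.5-p1 on mm10, per the submitters' processing notes. The labels name a reverse-stranded protocol, whereas the strand setting of the counting and the annotation release are not given in the sources used here, so reads of overlapping or antisense genes may be shared. The counts of 22 of 24 samples were used. KO mESC, 2 samples, is not analysed here: no label ties a column to either of them, and 3 columns of the deposited table stayed unused.

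Counts were tested with edgeR 4.0.16 in R 4.3.3 (TMM, default filter by group, robust quasi-likelihood, group means, Benjamini-Hochberg over all genes). The 16 course libraries formed 1 fit, the 4 diff_XEN libraries another, and all 6 endpoint libraries, joined by identifier, another. SE is derived from the F statistic. CPM uses TMM-scaled library sizes and RPKM exon lengths of a GRCm38 annotation. Total counts were 10601574 to 27147835 (course) and 13941826 to 40139219 (endpoint). Intervals cover counting error only. The code was tested on simulated counts. Alternatives were DESeq2 1.42.0 (its size factors, its Wald test), no filter, the replicate block, a fit of only the 4 libraries compared, and fits that omit a single library. The genes and lists were chosen with earlier results of these data known, the mesenchyme list last of all. Named from each list were called members with the smallest p, at most 4 per comparison, and defining markers at 0, and for likeness the 3 genes with the highest r and a mean of at least 5 CPM. Some genes that this rule names are not reported here.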

Additional observations from a re-analysis of the deposited data

How the results depend on the processing

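Without a filter on low counts, edgeR called 3754, 1094, 2035 and 2119 genes between genotypes on days 1 to 4 and 2707 for the difference in change, against 2406, 288, 854, 1246 and 1136, and of the 7 tested genes 2, 2, 1 and 3 on the single days, 5 on average and 1 for the difference in change. DESeq2 called 607 on day 2, 1345 on day 3 and 2191 for the difference in change, with 1 of the 7 on day 3 and 2 on average. With the 4 compared libraries alone, 1440 were called on day 2 and 35 on day 3, and 2 of the 7 on day 1 and on day 2. The cause was not tested. Leaving out 1 library gave 45 to 4225 calls on day 1 (lowest without KO replicate 2, highest without KO replicate 1), 49 to 105 on day 2, 271 to 2643 on day 3 (without WT replicate 2 and 1), 443 to 835 on day 4, 222 to 3133 for the difference in change and 4180 to 6952 in diff_XEN (lowest without clone 5-3, and 4280 without C4), and 0 to 1 of the 7 on days 1 and 3 and 0 to 2 on average.

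Without 1 library the following uncalled log2 values changed sign. On day 1 Nes ranged from -0.01 to 0.24. On day 2 Nes ranged from -0.16 to 0.57 and Stmn3 from -0.34 to 0.86. Day 3 gave -0.11 to 0.58 for Nes, -1.08 to 0.08 for Tubb3, -1.33 to 0.34 for Stmn2 and -0.70 to 0.98 for Stmn4. Day 4 gave -0.17 to 1.29 for Sox1 and -0.48 to 0.19 for Map2. From day 1 to day 4, WT gave -0.71 to 0.68 for Tubb3 and -0.20 to 0.38 for Map2, and KO -0.95 to 0.47 and -0.02 to 0.67. The difference in change gave -0.98 to 0.51 for Sox1, -1.09 to 0.64 for Tubb3, -0.14 to 0.55 for Map2 and -0.33 to 0.52 for Stmn4. In diff_XEN the count of 14 higher genes of the neuronal cytoskeleton list ranged from 11 to 14 without 1 library.

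No label says what a replicate number stands for. Same-numbered deviations correlated above 0.1 in 8 of 28 pairs of groups (r from -0.25 to 0.50), not in every pair, so the samples were not treated as paired, although 12 of 16 libraries correlated best with a library of their own number, a hint from the data and not from the design. With the replicate block, 1881, 249, 767 and 1112 genes were called between genotypes on days 1 to 4, and no call among the 9 genes changed. No paired analysis was possible for the endpoint libraries because their columns carry no replicate numbers. With 2 libraries per group, fits that omit 1 take the spread of its group from the remaining groups, and low genes such as Sox1, Stmn3 and Stmn4 rested on few counts in some groups.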
